A study of Homo sapiens with 60 samples.

Results

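The plasminogen activators, the serpins that inhibit them and thrombomodulin were followed in SW1783, an established human astrocytoma cell line, through 8 genes: PLAU, PLAT, PLAUR, SERPINB2, SERPINE2, F3, TFPI2 and THBD. Their symbols were matched to the Ensembl identifiers of the deposited table, where they are 8 of 60675 genes, and all 8 were among the 17569 genes that passed the filter on low counts. The set was selected on measured values, the levels of SERPINB2, PLAU and THBD, which were already known to differ between groups of these libraries. Those 3 genes are therefore described by their levels, fold changes and standard errors with no test, whereas PLAT, PLAUR, SERPINE2, F3 and TFPI2 were tested.

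RNA was sequenced 24 h after treatment in 20 groups of 3 libraries, 60 libraries in all. The titles of all 60 carry the labels batch A and second sequencing. Wortmannin, an inhibitor of phosphoinositide 3-kinase, was the positive control at 10 µM. Water extracts of fresh ginger (Zingiberis Rhizoma Recens), dried ginger (Zingiberis Rhizoma), Pinellia tuber and jujube fruit (Zizyphi Fructus) were given at low, medium and high doses of 20, 100 and 500 µg/mL. Scutellaria root extract was given at 16.4, 82 and 410 µg/mL and Coptis rhizome extract at 0.8, 4 and 20 µg/mL, since per the design text the IC20 was taken as the high dose where it lay under 500 µg/mL. The vehicle group received dimethyl sulfoxide, given as 0.1% by the sample labels and as 2% by the design text. The dimethyl sulfoxide content of the treated groups is not given. A single cell line stands for each condition. The sources used here do not state whether the 3 libraries of a group came from separate cultures, so p-values measure only the spread between these libraries, which may be technical. The vehicle carries a sample code set of its own, so code set and treatment cannot be told apart against the vehicle, while the 3 doses of an extract, and both gingers, share a set.

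Plasmin, the main fibrin-degrading protease, is cut from plasminogen by urokinase (PLAU) and tissue-type plasminogen activator (PLAT), and the urokinase receptor (PLAUR) holds urokinase at the cell surface. SERPINB2 (plasminogen activator inhibitor type 2) inhibits urokinase and tissue-type activator, and SERPINE2 (protease nexin) inhibits thrombin, urokinase and tissue-type activator. Tissue factor (F3) is the cell-surface starter of coagulation, TFPI2 is a Kunitz-type inhibitor of plasmin and trypsin, and thrombomodulin (THBD) is a surface receptor that binds thrombin and turns it towards activating the anticoagulant protein C. In gliomas the urokinase system is known for its part in invasion, and tissue factor for the clotting that accompanies these tumours.

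RefSeq promoter windows (GRCh38.p14) were held for 6 of the 8 genes, all but PLAT and THBD. The heptamer TGANTCA, bound by the AP-1 family of Fos and Jun dimers, was searched on both strands over the 250 bases before each start. It was present in 4 of the 8 windows of these 6 genes, those of SERPINB2, PLAUR, F3 and TFPI2, and in 6.57% of 35116 RefSeq promoter windows. Neither of the 2 windows of PLAU or the 2 of SERPINE2 held it. The 4 windows with a match and 1 each of PLAU and SERPINE2 without one are shown because all 6 genes were higher under high-dose Pinellia than in the vehicle. Each is written 5′ to 3′ on the strand of its gene, with the heptamer in capitals. All 6 RefSeq starts lie within the GENCODE extent of their gene.
SERPINB2, chr18:63887455-63887704, plus strand: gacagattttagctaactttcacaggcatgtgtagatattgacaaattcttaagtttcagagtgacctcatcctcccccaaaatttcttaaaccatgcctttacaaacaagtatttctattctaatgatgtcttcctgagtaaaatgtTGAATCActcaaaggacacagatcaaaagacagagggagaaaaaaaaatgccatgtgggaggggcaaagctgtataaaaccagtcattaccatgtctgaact
PLAUR, chr19:43670170-43670419, minus strand: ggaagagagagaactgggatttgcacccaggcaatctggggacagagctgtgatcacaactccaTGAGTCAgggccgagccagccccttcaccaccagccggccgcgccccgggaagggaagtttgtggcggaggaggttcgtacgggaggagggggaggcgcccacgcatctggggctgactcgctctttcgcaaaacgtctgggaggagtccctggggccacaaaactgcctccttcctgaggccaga
F3, chr1:94541760-94542009, minus strand: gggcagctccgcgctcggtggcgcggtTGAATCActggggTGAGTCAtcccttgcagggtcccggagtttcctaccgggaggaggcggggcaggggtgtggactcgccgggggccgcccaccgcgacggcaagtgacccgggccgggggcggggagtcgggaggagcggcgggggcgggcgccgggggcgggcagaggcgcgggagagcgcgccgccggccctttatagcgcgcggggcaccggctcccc
TFPI2, chr7:93890754-93891003, minus strand: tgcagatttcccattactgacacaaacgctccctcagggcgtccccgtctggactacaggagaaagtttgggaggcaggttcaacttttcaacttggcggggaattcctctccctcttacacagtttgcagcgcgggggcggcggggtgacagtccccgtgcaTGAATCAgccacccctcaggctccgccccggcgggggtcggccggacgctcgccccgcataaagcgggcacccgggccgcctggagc
PLAU, chr10:73910882-73911131, plus strand: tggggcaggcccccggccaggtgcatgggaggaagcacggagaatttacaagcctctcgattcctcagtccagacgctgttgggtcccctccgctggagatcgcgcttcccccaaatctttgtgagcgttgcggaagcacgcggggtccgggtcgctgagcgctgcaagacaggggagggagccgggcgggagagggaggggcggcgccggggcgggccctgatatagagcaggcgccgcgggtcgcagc
SERPINE2, chr2:224038641-224038890, minus strand: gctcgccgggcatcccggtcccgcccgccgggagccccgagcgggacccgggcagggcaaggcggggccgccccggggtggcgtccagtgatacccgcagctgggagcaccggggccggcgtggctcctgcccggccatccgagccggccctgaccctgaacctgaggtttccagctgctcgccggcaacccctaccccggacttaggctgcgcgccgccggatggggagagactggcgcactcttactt
The match in SERPINB2 begins 102 bases before the start and reads TGAATCA. Those in F3 begin 223 and 210 bases before the start, that in PLAUR 186 and that in TFPI2 87. A further 4 motifs were searched in the same way over the 8 windows of these 6 genes. A loose NF-kB motif was in 6 of them and in 54.4% of all windows. GCGTG, the core bound by the aryl hydrocarbon receptor, was in 3, against 32.2% of all windows. The TATA box TATAAA was in 2, against 10.7%, and the ATF4 motif TGATGNAA in 0, against 3.14%. No AP-1 match overlaps a match of another motif. These are matches of letters and not measured binding sites, and their relation to the changes under Pinellia or any other treatment was not tested.

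Library totals were 20.2 to 32.8 M counts with a median of 25.4 M, and no library had 0 counts for any of the 8 genes. THBD had the fewest, 65 to 2496 counts, and SERPINB2 had 288 to 1629, while the other 6 had at least 1175 in every library. Counts were scaled for library size to CPM (counts of a gene per M counts) with edgeR's TMM factors, and means are given ± SD over the 3 libraries of a group unless an SE is named. Cell type markers are the exception, given as CPM on library totals without these factors. Of 9 astroglial and glioma markers, VIM, CD44 and CHI3L1 were at 1120 CPM or more in every library. SOX9 was at 46.8 to 95.4 CPM and NES at 1.33 to 11.9 CPM, whereas OLIG2 reached at most 1.28 CPM. The highest values of S100B, GFAP and ALDH1L1 were 0.346, 0.279 and 0.12 CPM, so these astrocyte markers were at or near 0 while SOX9 was not. Among the endothelial markers, CDH5, CLDN5 and ERG reached at most 0.169 CPM, whereas KDR was at 23.4 to 33.8 CPM. PECAM1, TEK and TIE1 were, like KDR, present in every library, at 0.184 to 1.35, 0.43 to 1.74 and 0.291 to 1.05 CPM. Of 6 myeloid markers TYROBP had 0 counts in all 60 libraries and AIF1 in 55. CD14 and ITGAM reached at most 0.55 CPM. CSF1R and PTPRC were present in every library, at 1.6 to 4.56 and 4.88 to 16.9 CPM. In bulk RNA, fewer cells of a type and less RNA per cell cannot be told apart.

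Per kilobase of exon, the scale on which genes are compared, SERPINE2 led in the vehicle at 69.8 CPM per kb, followed by F3 at 46.37, PLAT at 45.06, TFPI2 at 33.62 and PLAU at 32.64. PLAUR stood at 13.06 and SERPINB2 at 9.061, and THBD was lowest at 1.388 CPM per kb. The highest mean was 25.6 times the lowest for THBD, 3.94 times for SERPINB2, 2.53 times for F3, 2.23 times for PLAU and 1.49 to 1.69 times for PLAUR, PLAT, TFPI2 and SERPINE2. The ends of both orders were reversed, SERPINE2 being highest with the narrowest range and THBD lowest with the widest, but the genes between did not follow, F3 being above PLAU and PLAUR both in level and in range. THBD and SERPINB2, the genes with the widest ranges, were among those chosen for their changes.

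**Figure D1:**
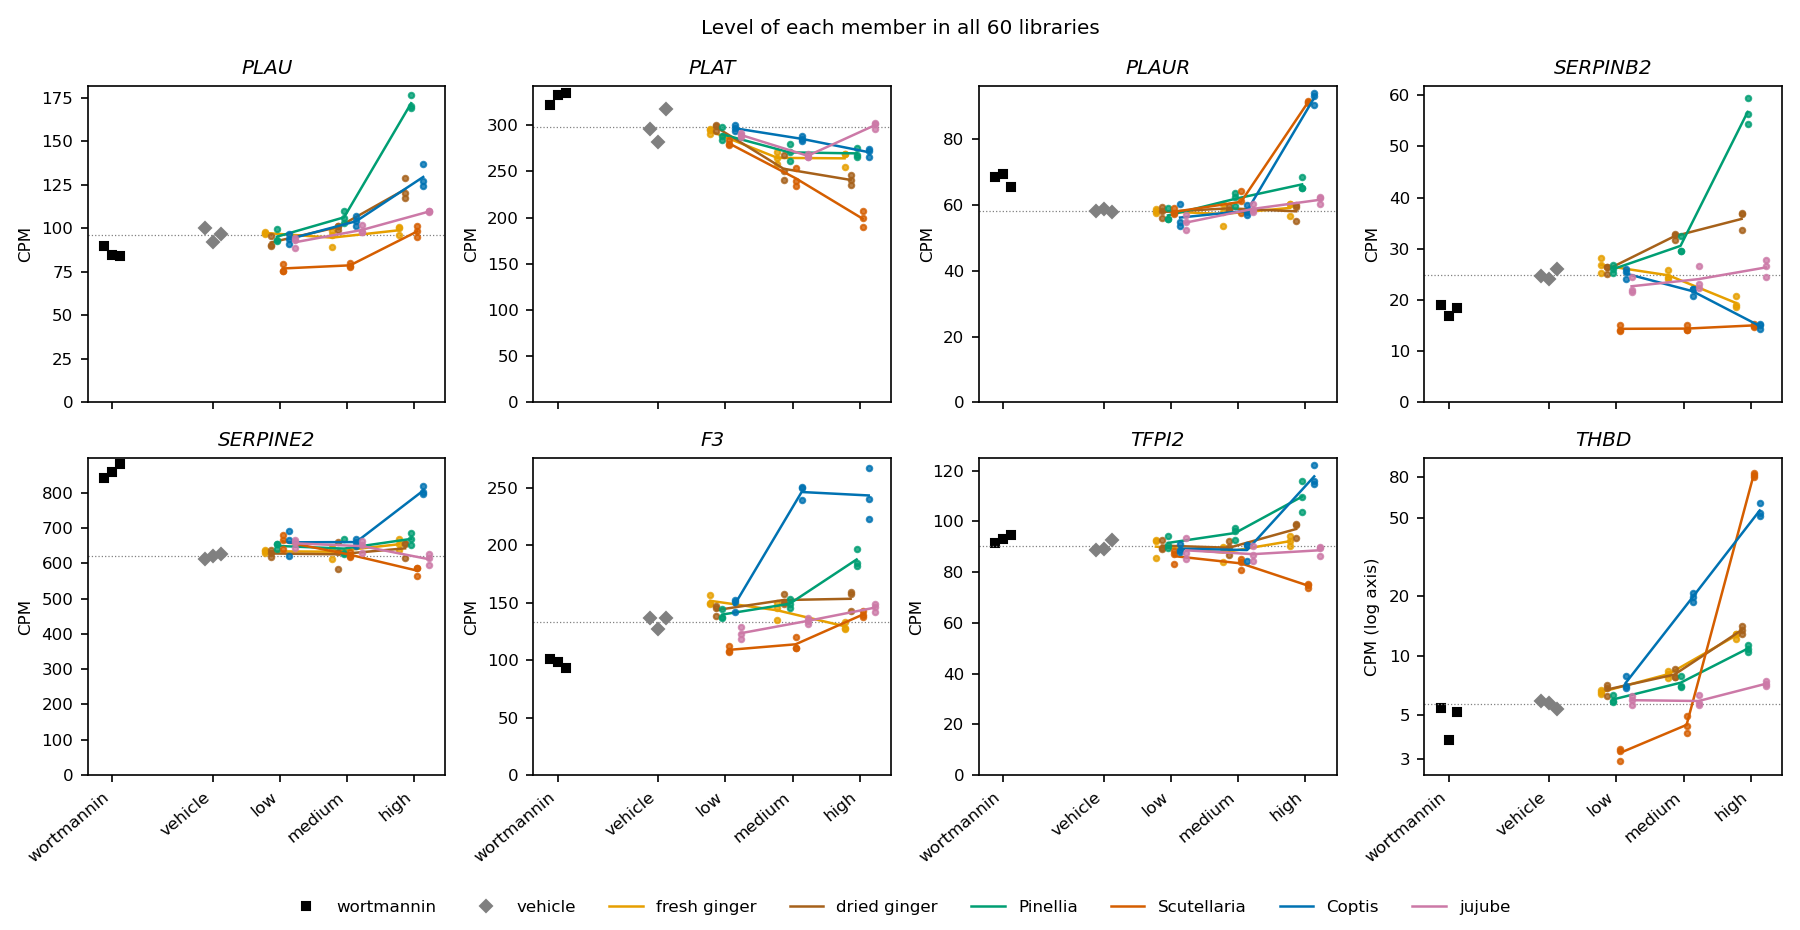
Level of each gene in all 60 libraries, in CPM, with wortmannin and vehicle at the left and the low, medium and high dose of each extract to the right; points are libraries, lines join group means and the dotted line is the vehicle mean. SERPINB2 reached 56.71 CPM under high-dose Pinellia and THBD, on a log axis, 82.38 CPM under high-dose Scutellaria, while SERPINE2 stayed between 579.3 and 861.2 CPM in all group means.

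The first question was how each treatment moved the 5 tested genes against the vehicle. At an edgeR adjusted p under 0.05, 34 of 95 pairs of gene and treatment were called, 19 higher and 15 lower, and 19 of the 34 were at the 6 high doses. Under wortmannin 4 of 5 were called, where 36.5% of all genes tested were. At high dose the calls were 5 of 5 under Pinellia (18% of all genes), 5 of 5 under Coptis (75.2%), 4 of 5 under Scutellaria (58.8%), 3 of 5 under dried ginger (17%) and 1 of 5 each under fresh ginger (19.3%) and jujube (17.3%). Coptis and Scutellaria moved most of the transcriptome, so their counts lie near the background, whereas under Pinellia all 5 genes passed where fewer than 1 in 5 of all genes did. That count is no independent result, since the set was chosen partly for PLAU and SERPINB2, which were highest there. Over the group means PLAU correlated with TFPI2 (r = 0.712) and F3 (r = 0.685). The SERPINE2 call under Pinellia had an edgeR adjusted p of up to 0.082 across the alternatives. At medium dose the calls were 2 of 5 under Coptis (41.2%), Scutellaria (8.45%) and dried ginger (0.7%), and 1 of 5 under fresh ginger (1.5%), Pinellia (1.41%) and jujube (0.364%). At low dose they were 1 of 5 under fresh ginger (7.94%) and Scutellaria (2.72%), and 0 of 5 under dried ginger (0.0512%), Pinellia (0.142%), Coptis (0.683%) and jujube (0.0114%). In those 4 comparisons without a call, edgeR gave an unadjusted p under 0.05 to 1, 0, 2 and 3 of the 5 genes, and DESeq2 called 0 in each. All 19 comparisons share the 3 vehicle libraries.

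**Figure D2:**
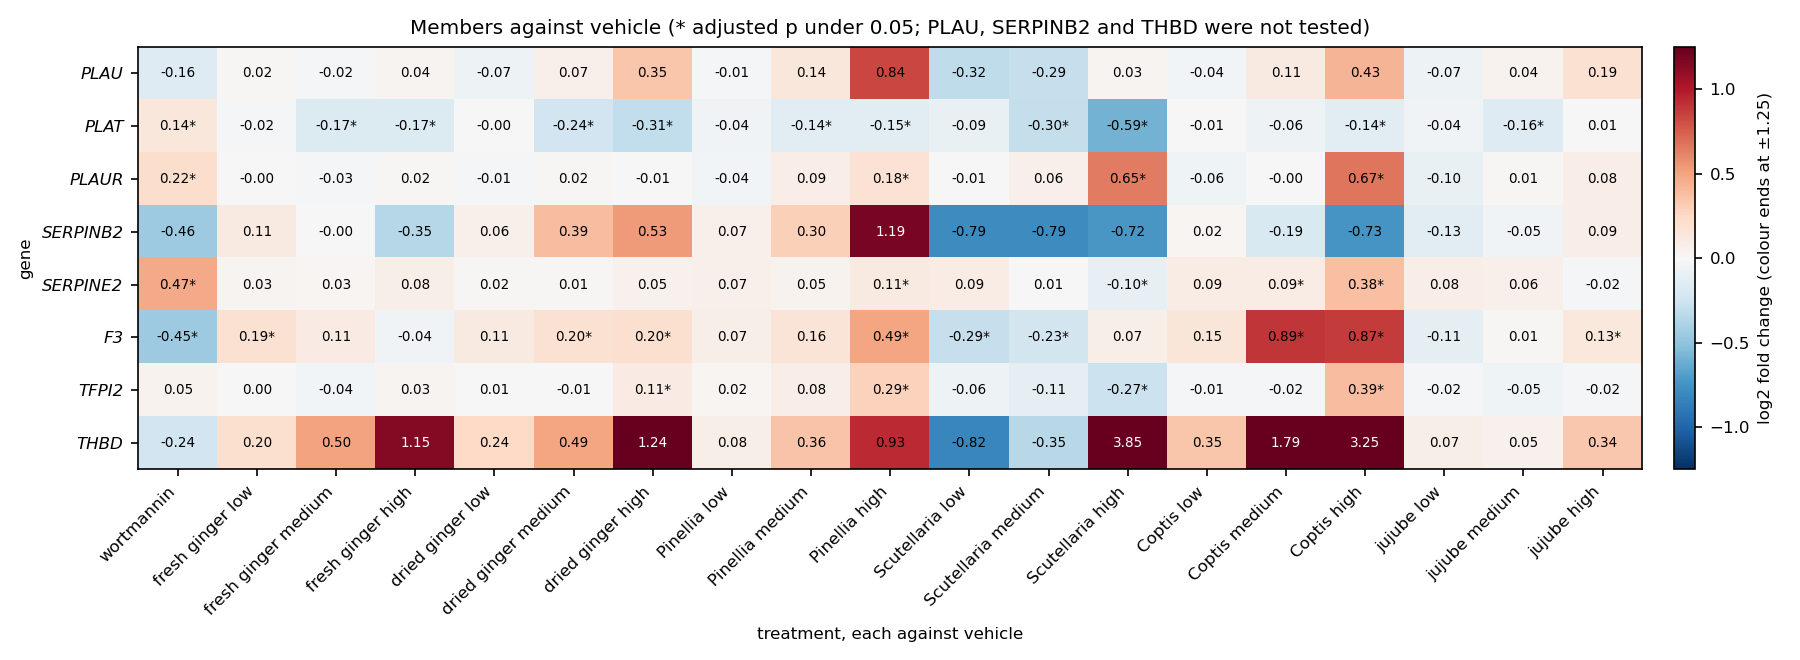
Log2 fold change of each gene (rows) in each of the 19 treatments (columns) against the vehicle, from edgeR; red is higher and blue lower than the vehicle, with darker colour for larger changes, and an asterisk marks an adjusted p under 0.05 for the 5 tested genes. The Pinellia high column is red for every gene but PLAT, and THBD reaches 3.85 under high-dose Scutellaria and 3.25 under high-dose Coptis.

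PLAU (ENSG00000122861, chr10:73909177-73917497 in GRCh38, plus strand) was highest under high-dose Pinellia. It had 169.9, 168.8 and 176.6 CPM there, against 99.97, 92.31 and 96.6 CPM in the vehicle, a log2 fold change of 0.84 ± 0.036 (SE). High-dose Coptis gave 127, 136.9 and 124.4 CPM (0.43 ± 0.038) and high-dose dried ginger 117.6, 129.1 and 120.2 CPM (0.35 ± 0.037). All 9 of these libraries lay above every vehicle library, and the Coptis and dried ginger groups overlapped each other. With library totals in place of TMM scaling factors the Coptis difference was 0.11. Low- and medium-dose Scutellaria had the lowest means, 76.92 ± 2.17 and 78.72 ± 1.12 CPM (-0.32 ± 0.039 and -0.29 ± 0.039), below every vehicle library, and wortmannin was next at 86.22 ± 3.02 CPM (-0.16 ± 0.038). High-dose Scutellaria, at 98.17 ± 3.08 CPM, and high-dose fresh ginger, at 98.86 ± 2.58 CPM, overlapped the vehicle. C10orf55 lies on the opposite strand of PLAU and had a median of 18 counts, and no source used here states the strand setting of the counting.

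PLAT (ENSG00000104368, chromosome 8, 42175233 to 42207724, minus strand), the activator best known for dissolving clots in blood vessels and for its release by neurons, moved mostly downwards. It fell in 10 of the 19 treatments and rose in 1, wortmannin. High-dose Scutellaria gave 199.9, 206.9 and 189.2 CPM, against 295.8, 281.9 and 317 CPM in the vehicle (log2 fold change -0.59 ± 0.033 SE, edgeR adjusted p = 5.9e-22). The groups did not overlap. High-dose dried ginger followed at 240.6 ± 5.5 CPM (-0.31 ± 0.033, adjusted p = 1.9e-10), medium-dose Scutellaria at 242.5 ± 9.92 CPM (-0.30 ± 0.033, adjusted p = 1.1e-09) and medium-dose dried ginger at 252.7 ± 14.2 CPM (-0.24 ± 0.033, adjusted p = 3.8e-06). High-dose fresh ginger, Pinellia and Coptis lay between 264 and 270.6 CPM, with adjusted p of 6.2e-05, 0.00078 and 0.00018, and the Coptis difference of -0.14 was -0.46 (adjusted p = 6.7e-19) without scaling factors. Wortmannin gave 321.4, 332.4 and 334.9 CPM (0.14 ± 0.033, adjusted p = 0.00029). Jujube was lower at the medium dose (-0.16 ± 0.033, adjusted p = 0.0097) but at 299.7 ± 3.48 CPM close to the vehicle at the high dose (0.01 ± 0.033, adjusted p = 0.91). Medium-dose Coptis (-0.06 ± 0.033, adjusted p = 0.11) was called lower without scaling factors (-0.20, adjusted p = 2.3e-07).

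Of the smaller PLAT calls, 3 were lost when a single library was left out. The fall under medium-dose fresh ginger (-0.17, adjusted p = 0.00093) had an adjusted p of 0.052 without vehicle replicate 3, the highest vehicle library, over a range of 1.8e-05 to 0.052 across the alternatives. That under medium-dose jujube had 0.17 without vehicle replicate 3, 0.065 without jujube replicate 1 and 0.066 without jujube replicate 3, over 0.00036 to 0.17. That under medium-dose Pinellia (-0.14, adjusted p = 0.012) had 0.2 without vehicle replicate 3, 0.14 without Pinellia replicate 2 and 0.15 with only the compared groups in the fit, over 0.0014 to 0.2.

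PLAUR (ENSG00000011422, chr19:43646095-43670547, minus strand), the lipid-anchored receptor of urokinase, rose in 4 treatments and fell in 0 with TMM scaling. It had 90.22, 93.89 and 93.04 CPM under high-dose Coptis and 90.79, 91.38 and 91.18 CPM under high-dose Scutellaria, against 58.1, 58.82 and 57.67 CPM in the vehicle. The log2 fold changes were 0.67 ± 0.039 (edgeR adjusted p = 1e-21) and 0.65 ± 0.039 (adjusted p = 5.6e-21), and the Coptis one was 0.35 (adjusted p = 8.2e-12) without scaling factors. Both groups overlapped each other and lay far above the other 18, of which wortmannin (67.72 ± 2.03 CPM, 0.22 ± 0.040, adjusted p = 1.3e-05) and high-dose Pinellia (66.14 ± 1.9 CPM, 0.18 ± 0.040, adjusted p = 0.00047) were next. At low and medium doses of all 6 extracts PLAUR stood between 54.56 and 61.75 CPM and was not called, except that without scaling factors it was lower under medium-dose Coptis (-0.14, adjusted p = 0.0022, against -0.002 and 0.97 with them).

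SERPINB2 (ENSG00000197632, chr18:63871692-63903890, plus strand), a serpin that is largely kept inside the cell and is known for its strong response to inflammatory stimuli, was highest under high-dose Pinellia. It had 59.5, 56.3 and 54.33 CPM there, against 24.67, 24.01 and 26.01 CPM in the vehicle, a ratio of 2.28 (log2 fold change 1.19 ± 0.052 SE). Next came dried ginger, with 36.82, 36.99 and 33.69 CPM at the high dose (0.53 ± 0.055) and 32.91, 31.8 and 32.67 CPM at the medium dose (0.39 ± 0.055), and then medium-dose Pinellia at 30.58 ± 1.63 CPM. None of these libraries overlapped the vehicle. At the other end, SERPINB2 was low at all 3 doses of Scutellaria, at 14.38 ± 0.665, 14.42 ± 0.569 and 15.05 ± 0.303 CPM from low to high (-0.79, -0.79 and -0.72), and these 3 groups overlapped one another and high-dose Coptis, at 14.94 ± 0.533 CPM (-0.73 ± 0.064). Wortmannin at 18.09 ± 1.02 CPM (-0.46 ± 0.061) and high-dose fresh ginger at 19.46 ± 1.16 CPM (-0.35 ± 0.060) were also below every vehicle library. So was medium-dose Coptis at 21.72 ± 0.816 CPM (-0.19 ± 0.059). Without scaling factors the Coptis differences were -1.05 at the high dose and -0.33 at the medium dose. The 3 jujube doses and the low doses of both gingers, Pinellia and Coptis stood between 22.69 and 26.82 CPM, around the vehicle mean of 24.9 CPM. SERPINB10, which overlaps SERPINB2 on the same strand, had a median of 9 counts.

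SERPINE2 (ENSG00000135919, chr2:223975112-224039319, minus strand), a secreted serpin held at the cell surface by heparan sulphate and known from glial cells, rose most under wortmannin. It had 841.9, 860.1 and 881.5 CPM there, against 613.7, 622.1 and 626 CPM in the vehicle (log2 fold change 0.47 ± 0.033 SE, edgeR adjusted p = 4.3e-17), with no overlap. High-dose Coptis gave 820, 801.1 and 797.6 CPM (0.38 ± 0.033, adjusted p = 5.5e-15), but without scaling factors the difference was 0.06 (adjusted p = 0.086, over a range of 4.3e-33 to 0.086 across the alternatives). That scaling moves the median log2 fold change of all genes under high-dose Coptis by 0.316, the widest shift in the series, to -0.346, so the rise of SERPINE2 is one relative to the bulk of the genes. The small rise under medium-dose Coptis (0.09 ± 0.033, adjusted p = 0.026) turned to -0.05 (adjusted p = 0.22) without scaling factors, and its adjusted p was 0.085 and 0.075 without vehicle replicates 1 and 2 and 0.054 and 0.082 without Coptis replicates 1 and 2, over a range of 0.013 to 0.22.

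The remaining SERPINE2 calls were of about 0.1 on the log2 scale. High-dose Scutellaria gave the lowest mean of the 20 groups, 579.3 ± 12.8 CPM (-0.10 ± 0.033, edgeR adjusted p = 0.0087), which had an adjusted p of 0.077 without Scutellaria replicate 3, over 0.0036 to 0.077. High-dose Pinellia gave 669.3 ± 15.9 CPM (0.11 ± 0.033, adjusted p = 0.015), with an adjusted p of 0.066 and 0.056 without vehicle replicates 1 and 2, 0.052 and 0.082 without Pinellia replicates 2 and 3, and 0.064 with only the compared groups, over 0.0084 to 0.082. The other 16 groups stood between 611.5 and 662.3 CPM, and most neighbours in that order overlapped.

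F3 (ENSG00000117525, chr1:94529225-94541800, minus strand) was the tested gene with the widest range. Coptis raised it to 249.9, 239.1 and 250.4 CPM at the medium dose and 240.7, 222.7 and 267 CPM at the high dose, against 136.3, 126.8 and 136.7 CPM in the vehicle. The log2 fold changes were 0.89 ± 0.045 (edgeR adjusted p = 1.8e-23) and 0.87 ± 0.045 (adjusted p = 4e-24), and 0.75 and 0.56 without scaling factors. The medium- and high-dose Coptis libraries overlapped each other, so F3 had its full difference at 4 µg/mL, whereas at 0.8 µg/mL it was at 148.2 ± 5.56 CPM (0.15 ± 0.046, adjusted p = 0.11). High-dose Pinellia followed with 181.8, 184.3 and 197 CPM (0.49 ± 0.045, adjusted p = 1e-12) and high-dose dried ginger with 153.5 ± 9.12 CPM (0.20 ± 0.046, adjusted p = 0.00078).

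F3 was lowest under wortmannin, at 100.7, 98.27 and 93.38 CPM (-0.45 ± 0.048, edgeR adjusted p = 2.6e-11). Scutellaria lowered it to 108.9 ± 2.58 CPM at the low dose (-0.29 ± 0.047, adjusted p = 3.8e-05) and 113.8 ± 5.46 CPM at the medium dose (-0.23 ± 0.047, adjusted p = 0.00064), but it was at 139.7 ± 2.73 CPM at the high dose (0.07 ± 0.046, adjusted p = 0.2). Wortmannin and both Scutellaria groups lay below every vehicle library. A further 3 small rises lost the call when a single library was left out. Low-dose fresh ginger (0.19, adjusted p = 0.0074) had an adjusted p of 0.075 without vehicle replicate 2, the lowest vehicle library, over 3.1e-05 to 0.075. Medium-dose dried ginger (0.20, adjusted p = 0.02) had 0.21 without vehicle replicate 2 and 0.17 without dried ginger replicate 3, over 1e-05 to 0.21. High-dose jujube (0.13, adjusted p = 0.042) had 0.052 and 0.28 without vehicle replicates 1 and 2 and 0.054, 0.17 and 0.1 without jujube replicates 1, 2 and 3, over 0.0087 to 0.28.

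TFPI2 (ENSG00000105825, chr7:93885396-93890991, minus strand) had 116, 122.4 and 114.9 CPM under high-dose Coptis and 116, 109.8 and 103.6 CPM under high-dose Pinellia, against 88.87, 88.94 and 92.66 CPM in the vehicle. The log2 fold changes were 0.39 ± 0.037 (edgeR adjusted p = 1.8e-13) and 0.29 ± 0.037 (adjusted p = 3.4e-08), and the Coptis one was 0.07 (adjusted p = 0.078, over a range of 1.7e-23 to 0.078) without scaling factors. The Coptis and Pinellia groups overlapped each other and lay above every vehicle library. High-dose Scutellaria was lowest, at 74.73, 73.83 and 75.41 CPM (-0.27 ± 0.038, adjusted p = 1.8e-08). The other 17 group means lay between 83.44 and 97 CPM, wortmannin included at 93.07 ± 1.63 CPM (0.05 ± 0.038, adjusted p = 0.36). Medium-dose Coptis (-0.02 ± 0.038, adjusted p = 0.7) was called lower without scaling factors (-0.16, adjusted p = 0.00019). The rise under high-dose dried ginger (0.11, adjusted p = 0.039) was lost under 8 alternatives. Its adjusted p was 0.13 and 0.21 without vehicle replicates 1 and 2 and 0.22 and 0.23 without dried ginger replicates 1 and 2, and between 0.053 and 0.093 with another size factor, no filter, DESeq2 or only the compared groups, over 0.0075 to 0.23.

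THBD (ENSG00000178726, chr20:23045633-23049741, minus strand) had by far the widest range. High-dose Scutellaria gave 80.18, 84.3 and 82.67 CPM and high-dose Coptis 51.09, 52.93 and 59.14 CPM, against 5.921, 5.77 and 5.42 CPM in the vehicle. These are ratios of 14.4 and 9.52 (log2 fold changes 3.85 ± 0.063 and 3.25 ± 0.066 SE). Medium-dose Coptis followed with 19.81, 20.82 and 18.84 CPM (1.79 ± 0.074). No library of these 3 groups overlapped another group. At the high dose dried ginger gave 13.51 ± 0.566 CPM (1.24 ± 0.079), fresh ginger 12.65 ± 0.439 CPM (1.15 ± 0.081) and Pinellia 10.89 ± 0.437 CPM (0.93 ± 0.082), again above every vehicle library. Jujube reached 7.229 ± 0.216 CPM (0.34 ± 0.089). The gingers, Pinellia and Coptis were each highest at the high dose and lowest at the low dose.

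The Scutellaria series differed in shape. THBD was lowest of all 20 groups at the low dose, with 3.323, 2.957 and 3.393 CPM (-0.82 ± 0.107), and below the vehicle at the medium dose, with 4.073, 4.407 and 4.961 CPM (-0.35 ± 0.098), before the level under the high dose given above. Wortmannin gave 5.48, 3.767 and 5.192 CPM (-0.24 ± 0.097), a difference that was -0.10 without wortmannin replicate 2, and the group overlapped the vehicle. Without scaling factors THBD was still 2.94 above the vehicle under high-dose Coptis on the log2 scale. THBD is a known endothelial gene. The summed level of 7 endothelial markers was 33 to 35.9 CPM under high-dose Scutellaria, 29.7 to 32.2 CPM under high-dose Coptis and 28.6 to 30 CPM in the vehicle, and it consisted mostly of KDR, at 23.4 to 33.8 CPM over all libraries, while CDH5 was at 0 in 34 of 60 libraries and never above 0.112 CPM. The summed level of 6 myeloid markers was 8.94 to 10.7, 6.96 to 7.67 and 16.3 to 18.3 CPM in the same 3 groups. Both sums are on library totals, so they are not on the scale of the THBD levels above. On library totals the median log2 fold change of all genes under high-dose Coptis was -0.346.

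The second question was how far the doses of an extract differed, which does not rest on the vehicle and holds the code set fixed. High against low dose, 20 of 30 pairs were called, 11 higher and 9 lower. All 5 tested genes were called for Scutellaria (58.1% of all genes) and Coptis (75.8%), 4 for Pinellia (14.5%), 3 for jujube (15.2%), 2 for fresh ginger (23.3%) and 1 for dried ginger (13.2%). PLAT fell in 5 of 6 extracts, most under Scutellaria (log2 difference -0.50 ± 0.033 SE, edgeR adjusted p = 4.7e-19) and dried ginger (-0.31 ± 0.033, adjusted p = 2.6e-10). PLAUR rose in 4, under Coptis (0.72 ± 0.039, adjusted p = 1.8e-23), Scutellaria (0.66 ± 0.039, adjusted p = 3e-21), Pinellia (0.22 ± 0.039, adjusted p = 2.6e-05) and jujube (0.17 ± 0.040, adjusted p = 0.0013). F3 rose in 4, under Coptis (0.72 ± 0.044), Pinellia (0.42 ± 0.045), Scutellaria (0.36 ± 0.047) and jujube (0.24 ± 0.046), and fell under fresh ginger (-0.23 ± 0.046, adjusted p = 0.00013). Without scaling factors the Coptis differences of PLAUR, F3 and PLAT were 0.42, 0.41 and -0.44, each still called. The rise of F3 under Scutellaria set 139.7 CPM at the high dose against 108.9 CPM at the low dose, where it was under the vehicle.

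TFPI2 rose with the dose of Coptis (0.40 ± 0.037, edgeR adjusted p = 2.9e-14, and 0.10 with adjusted p = 0.013 without scaling factors) and Pinellia (0.26 ± 0.037, adjusted p = 1.7e-07) and fell with that of Scutellaria (-0.21 ± 0.038, adjusted p = 4.5e-06). SERPINE2 rose under Coptis (0.29 ± 0.033, adjusted p = 2.9e-11), where the difference was -0.01 (adjusted p = 0.7, over 2.8e-21 to 0.7) without scaling factors, and fell under Scutellaria (-0.19 ± 0.033, adjusted p = 1.4e-06). Its fall under jujube (-0.10, adjusted p = 0.027) had an adjusted p of 0.099 and 0.078 without low-dose replicates 1 and 3, 0.14 and 0.058 without high-dose replicates 2 and 3 and 0.08 without scaling factors, over 0.0083 to 0.14. The fall of PLAT under Pinellia (-0.11, adjusted p = 0.02) had 0.13 without low-dose replicate 2, 0.057 and 0.083 without high-dose replicates 2 and 3 and 0.1 with only the compared groups, over 0.0053 to 0.13.

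Among the 3 described genes, the high-over-low difference of THBD was positive for all 6 extracts, between 0.27 ± 0.085 (SE) for jujube and 4.67 ± 0.070 for Scutellaria, with no overlap between the doses. PLAU was also higher at the high dose of all 6, between 0.02 ± 0.037 for fresh ginger, where the doses overlapped, and 0.85 ± 0.036 for Pinellia; that for Coptis was 0.46 ± 0.037, and 0.16 without scaling factors. SERPINB2 went both ways. It was higher at the high dose of Pinellia (1.12 ± 0.051), dried ginger (0.47 ± 0.053) and jujube (0.21 ± 0.057), lower at that of Coptis (-0.76 ± 0.063) and fresh ginger (-0.46 ± 0.058), and within the spread for Scutellaria (0.06 ± 0.067).

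**Figure D3:**
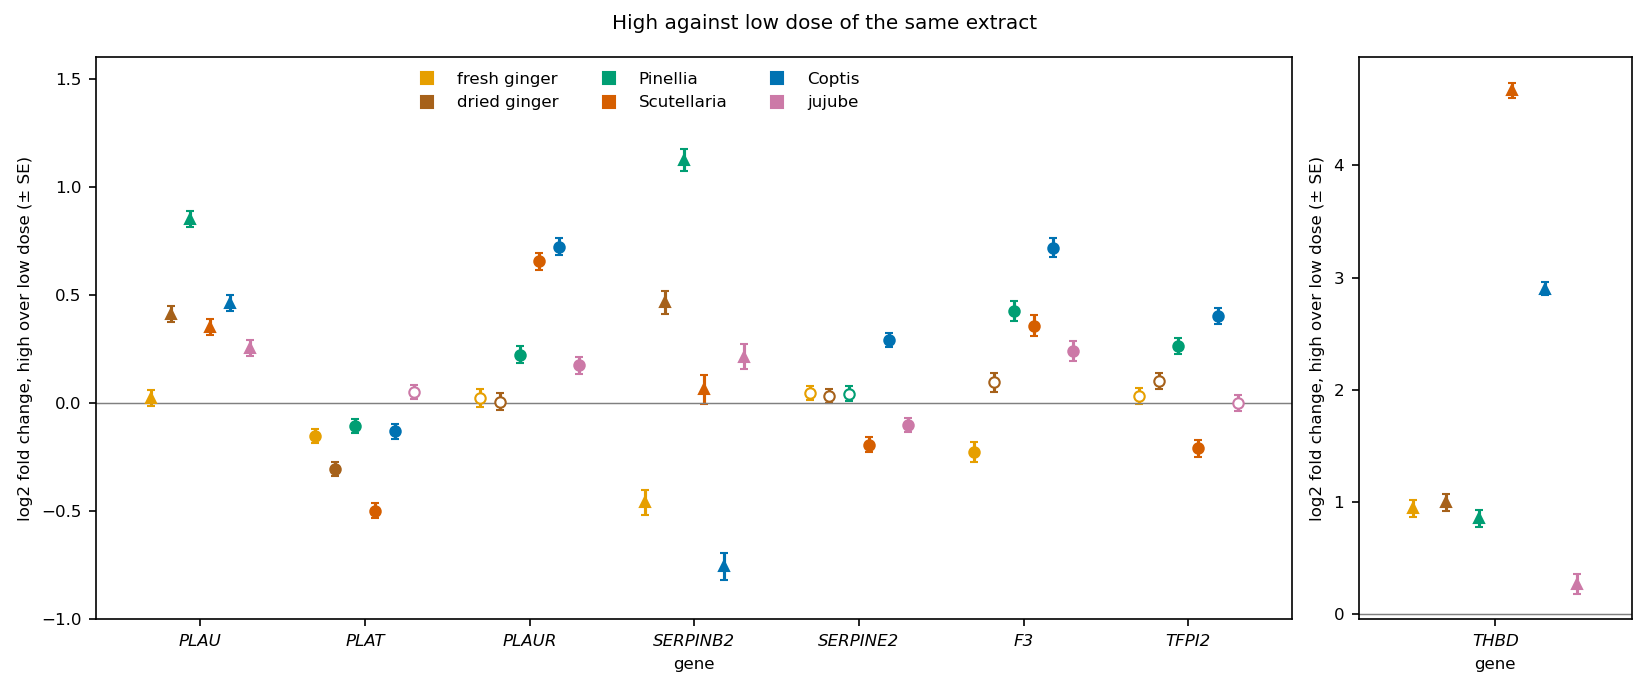
Log2 fold change between the high and the low dose of each extract (colours) for each gene, with SE bars; THBD has an axis of its own. Circles are tested genes, filled where the edgeR adjusted p is under 0.05, and triangles are the 3 described genes. SERPINB2 lies at 1.12 for Pinellia and -0.76 for Coptis, and THBD at 4.67 for Scutellaria.

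Fresh and dried ginger come from the same plant and were used at the same doses, so they can be set against each other. Dried against fresh, 0 of 5 tested genes were called at the low dose (0.279% of all genes) and 0 at the medium dose (0.0683%). In both, 0 of 5 had an unadjusted edgeR p under 0.05 and DESeq2 called 0. At the high dose 2 of 5 were called (1.42%). F3 had 143, 157.7 and 159.7 CPM under dried ginger, against 127.3, 128 and 133.3 CPM under fresh ginger (log2 difference 0.24 ± 0.046 SE, edgeR adjusted p = 0.00045). PLAT had 240.5, 246.2 and 235.2 CPM under dried ginger, against 268.9, 254.2 and 268.8 CPM under fresh ginger (-0.13 ± 0.033, adjusted p = 0.017), a difference with an adjusted p of 0.17 and 0.12 without fresh ginger replicates 1 and 3, 0.085 and 0.15 without dried ginger replicates 1 and 3 and 0.11 with only the compared groups, over 0.0039 to 0.17. The high-over-low difference of F3 was larger for dried than for fresh ginger by 0.32 ± 0.064 (adjusted p = 0.0025), which made it the 1 of 5 tested genes called for this difference of differences (0.814% of all genes).

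SERPINB2 parted the gingers further. It had 36.82, 36.99 and 33.69 CPM under high-dose dried ginger, against 20.78, 18.63 and 18.97 CPM under high-dose fresh ginger (log2 difference 0.88 ± 0.056 SE), and 32.46 ± 0.584 CPM against 24.82 ± 0.872 CPM at the medium dose (0.39 ± 0.055). At the low dose the groups overlapped, with 25.96 ± 0.809 CPM for dried ginger, against 26.82 ± 1.45 CPM for fresh ginger. PLAU was higher under dried ginger at the high dose, 122.3 ± 6.03 CPM against 98.86 ± 2.58 CPM (0.31 ± 0.037). For THBD the high doses gave 13.51 ± 0.566 CPM with dried ginger, against 12.65 ± 0.439 CPM with fresh ginger (0.095 ± 0.066), and PLAUR, SERPINE2 and TFPI2 were not called at any dose.

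Because activator and inhibitor act on each other, ratios of CPM per kb within a library were also taken. They are descriptions, since each holds a described gene. PLAU over SERPINB2 was 8.08 ± 0.456 under high-dose Coptis and 6.08 ± 0.0768 under high-dose Scutellaria, against 3.61 ± 0.159 in the vehicle. In the Coptis group PLAU was higher and SERPINB2 lower than in the vehicle, whereas in the Scutellaria groups, at 4.99 and 5.09 for the low and medium doses, SERPINB2 was the lower by more. Under high-dose Pinellia, where both genes were highest, the ratio was 2.83 ± 0.186. High-dose fresh and dried ginger lay on opposite sides of the vehicle, at 4.75 ± 0.391 and 3.18 ± 0.184.

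PLAU over PLAT, the ratio of the 2 activators, was 0.725 ± 0.0381 in the vehicle and above 1 in 4 groups. These were high-dose Pinellia at 1.43 ± 0.0556, dried ginger at 1.14 ± 0.0399, Scutellaria at 1.11 ± 0.0765 and Coptis at 1.07 ± 0.0402. In the Scutellaria group this came with PLAT at 198.7 CPM and PLAU at the vehicle level. F3 over THBD, the starter of clotting over the thrombin receptor, was 2.42 ± 0.102 under high-dose Scutellaria, 6.4 ± 0.363 under high-dose Coptis and 48.5 ± 4.84 under low-dose Scutellaria, against 33.5 ± 2.37 in the vehicle. Under high-dose fresh and dried ginger it was 14.6 ± 0.412 and 16.2 ± 1.12.

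**Figure D4:**
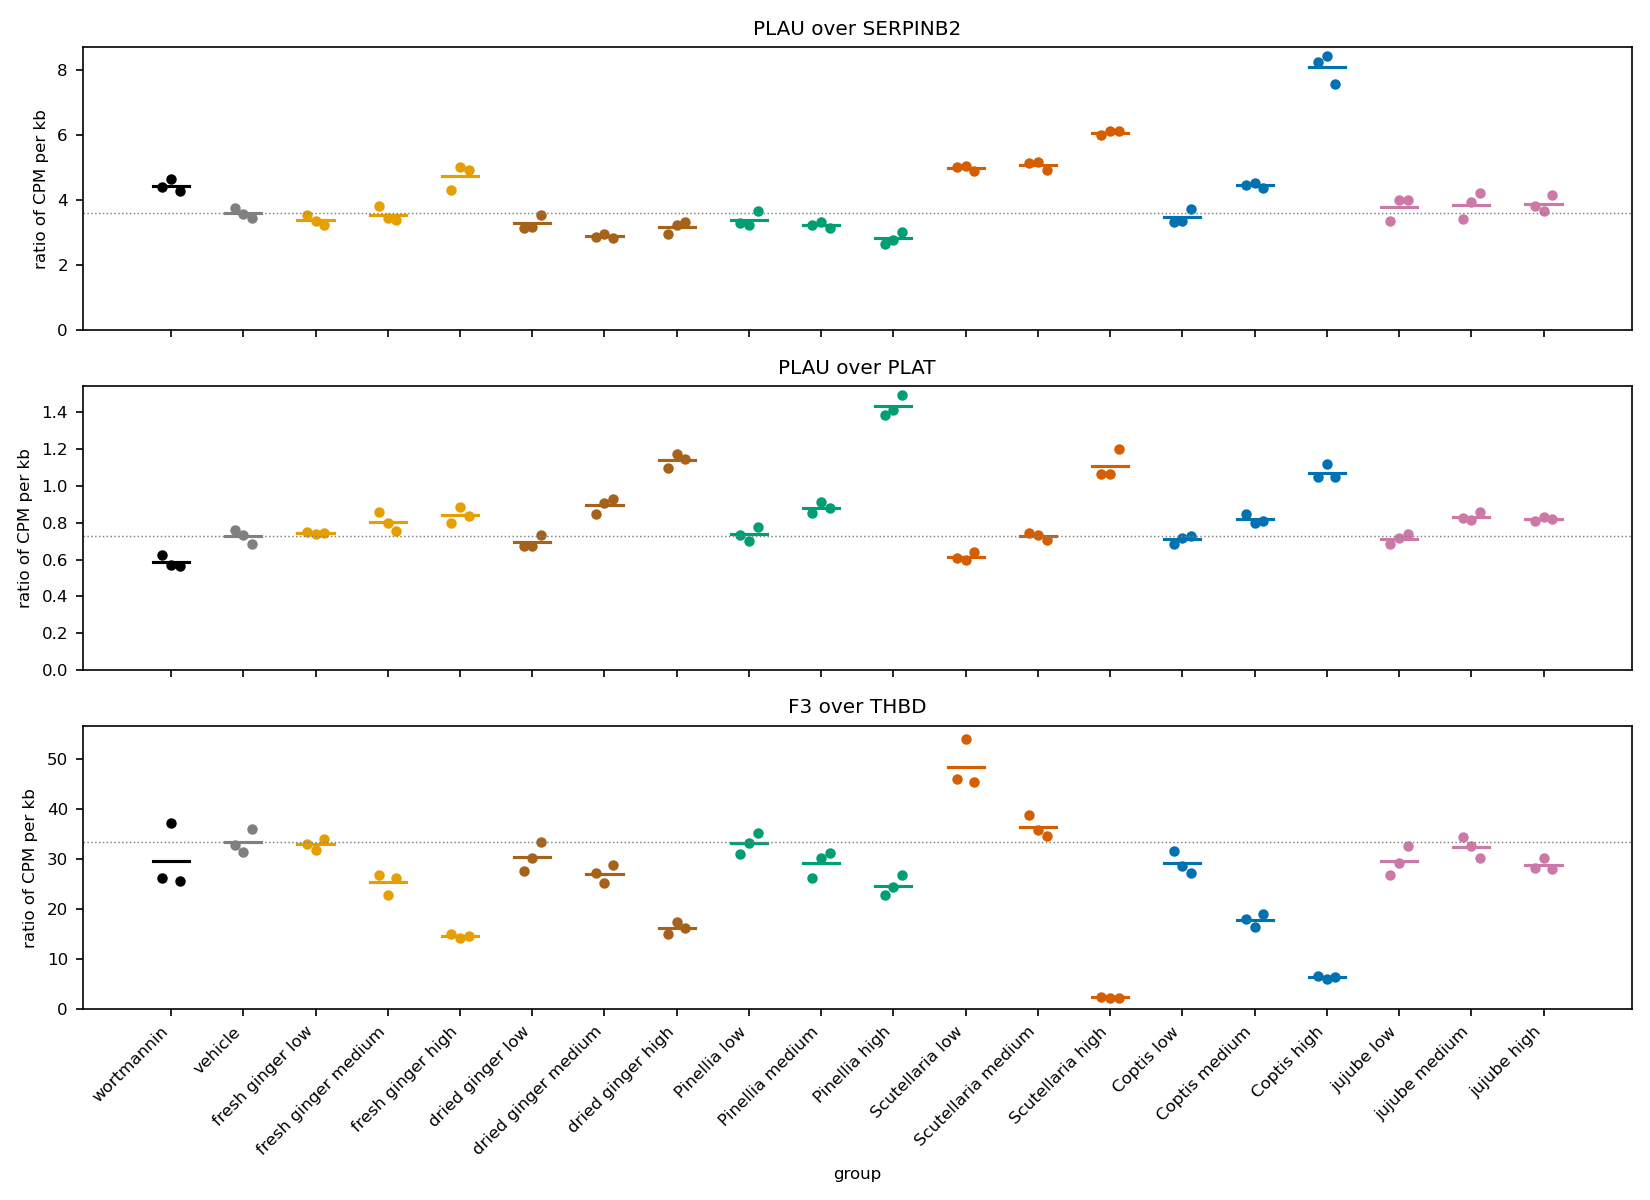
Ratios of CPM per kb within each library (points) with group means (bars) for PLAU over SERPINB2, PLAU over PLAT and F3 over THBD, by group; the dotted line is the vehicle mean. PLAU over SERPINB2 peaks at 8.08 under high-dose Coptis, and F3 over THBD reaches 2.42 under high-dose Scutellaria.

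Other genes of fibrinolysis and coagulation were taken from 7 lists with 47 genes, of which 27 were tested. Plasminogen itself, prothrombin and factors V, VII, IX and X were among the 20 that did not pass the filter. Against the vehicle, 10 of the 27 rose and 6 fell under wortmannin (median log2 fold change 0.11, all genes 0.016), 9 rose and 8 fell under high-dose Coptis (0.009 and -0.03), 4 rose and 13 fell under high-dose Scutellaria (-0.248 and 0.009), and 2 rose and 10 fell under high-dose Pinellia (-0.123 and 0.003). High-dose dried ginger had 2 higher and 3 lower, fresh ginger 0 and 4, and jujube 1 and 5, with medians between -0.02 and 0.022. Beside these counts, the share of all genes called was 36.5% under wortmannin, 75.2% under Coptis, 58.8% under Scutellaria, 18% under Pinellia, 17% under dried ginger, 19.3% under fresh ginger and 17.3% under jujube. The 17 of 27 called under Coptis and the 17 of 27 under Scutellaria were thus below and near the background. SERPINI1, a neuronal inhibitor of tissue-type activator, was at 1.589 CPM in the vehicle and was not called under wortmannin or any high dose.

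Under wortmannin the clearance receptors MRC2 (0.46 ± 0.037, edgeR adjusted p = 5.8e-15) and LRP1 (0.43 ± 0.041, adjusted p = 7e-13), which take up urokinase complexes, rose, as did the anticoagulants TFPI (0.65 ± 0.041, adjusted p = 9.1e-19), the inhibitor of the tissue factor pathway, and PROS1, protein S (0.57 ± 0.045, adjusted p = 3.8e-15). The thrombin receptor F2R rose (0.36 ± 0.032, adjusted p = 1.5e-13), as did factor VIII (F8, 0.46 ± 0.082, adjusted p = 9e-06) and SERPINB8 (0.21 ± 0.045), while the plasminogen receptors S100A10 (-0.32 ± 0.049) and ENO1 (-0.30 ± 0.028) and the collagen chaperone SERPINH1 (-0.33 ± 0.031) fell. F2RL1 (0.15 ± 0.048, adjusted p = 0.013) had adjusted p of 0.13 without vehicle replicate 3, 0.18 without wortmannin replicate 2 and 0.051 with no filter, over 0.0065 to 0.18.

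Under high-dose Scutellaria MRC2 (-0.84 ± 0.039, edgeR adjusted p = 6.6e-26) and LRP1 (-0.50 ± 0.041, adjusted p = 1.5e-15) fell. The annexin A2 complex that binds plasminogen fell in both parts, S100A10 (-0.60 ± 0.050, adjusted p = 1.3e-15) and ANXA2 (-0.36 ± 0.028, adjusted p = 8.3e-17). PROS1 (-0.41 ± 0.048), F2R (-0.25 ± 0.033) and the endothelial protein C receptor PROCR, thrombomodulin's partner in protein C activation (-0.25 ± 0.050, adjusted p = 2.7e-05), were lower where THBD was 14.4 times the vehicle. SERPINB8 rose (0.60 ± 0.043) and SERPINB9, the granzyme B inhibitor, fell (-1.03 ± 0.055, adjusted p = 4.4e-23), and ANXA5, which covers clot-promoting membranes, rose (0.19 ± 0.029). TFPI (0.11 ± 0.042, adjusted p = 0.028) had adjusted p of 0.071 and 0.2 without vehicle replicates 2 and 3 and 0.058 and 0.077 without Scutellaria replicates 2 and 3, over 0.0076 to 0.2.

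Under high-dose Coptis the anticoagulants ANXA5 (0.67 ± 0.029, edgeR adjusted p = 1.7e-27) and PROCR (0.51 ± 0.049, adjusted p = 7.1e-14) rose, with 0.35 and 0.20 without scaling factors. TFPI (0.15 ± 0.043, adjusted p = 0.0012) turned to -0.16 (adjusted p = 0.0004) without them. F2R (0.16 ± 0.033) and MRC2 (0.19 ± 0.038) likewise turned, to -0.16 and -0.13, and PLGRKT (0.40 ± 0.061) was at 0.09 (adjusted p = 0.21, over 2e-10 to 0.21). SERPINB9 fell to 4.355 CPM, against 23.44 CPM in the vehicle (-2.43 ± 0.070, adjusted p = 1.3e-35). F2RL1, the trypsin-type protease receptor (-1.05 ± 0.055, adjusted p = 3.8e-24), SERPINH1 (-0.78 ± 0.032), F8 (-0.57 ± 0.095, and -0.89 without scaling factors) and S100A10 (-0.45 ± 0.050, and -0.77) fell, and LRPAP1, the chaperone of LRP1, rose (0.47 ± 0.038, adjusted p = 2.2e-16, and 0.15 without scaling factors).

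Under high-dose Pinellia the changes were small. SERPINB8 rose (0.47 ± 0.044, edgeR adjusted p = 2.1e-12), while F2R (-0.23 ± 0.033), PROS1 (-0.24 ± 0.048), LRP1 (-0.20 ± 0.041) and SERPINH1 (-0.20 ± 0.031) fell. A further 5 calls were lost when a single library was left out. S100A10 (-0.18) had an adjusted p of 0.085 without Pinellia replicate 3, over 6.5e-06 to 0.085, and TFPI (0.15) one of 0.075 without vehicle replicate 3, over 0.0046 to 0.075. PLGRKT (-0.20) had 0.11 without vehicle replicate 3 and 0.1 without Pinellia replicate 3, over 0.018 to 0.11, and LRPAP1 (-0.12) had 0.13 without vehicle replicate 2 and 0.14 without Pinellia replicate 3 and 0.083 with only the compared groups, over 0.012 to 0.14. F2RL1 (-0.15) had 0.13 and 0.1 without vehicle replicates 1 and 2 and 0.057 and 0.12 without Pinellia replicates 1 and 3, 0.057 with no filter and 0.1 with only the compared groups, over 0.0085 to 0.13.

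Both gingers at the high dose lowered ANXA2 (-0.16 ± 0.028 under dried and -0.18 ± 0.028 under fresh ginger) and S100A10 (-0.23 ± 0.049 and -0.18 ± 0.049). Dried ginger raised the receptor gene F2RL2 (0.46 ± 0.114, edgeR adjusted p = 0.0022), and fresh ginger lowered F2RL1 (-0.20 ± 0.049, adjusted p = 0.0026). High-dose jujube lowered F2RL1 (-0.30 ± 0.049, adjusted p = 7.9e-06), ANXA5 (-0.17 ± 0.029), F2R (-0.15 ± 0.033) and SERPINB1 (-0.20 ± 0.058) and raised SERPINB9 (0.19 ± 0.049). Other calls were lost under at least 1 alternative. ANXA5 was lower under high-dose fresh ginger (-0.087, edgeR adjusted p = 0.028, over 0.0073 to 0.17) and dried ginger (-0.085, adjusted p = 0.035, over 0.011 to 0.2). SERPINB6 was higher under high-dose dried ginger (0.157, adjusted p = 0.00067, over 6.2e-05 to 0.062). ANXA2 was lower under high-dose jujube (-0.093, adjusted p = 0.014, over 0.0027 to 0.081). Between dried and fresh ginger edgeR called 0 of the 27 genes at the low, medium and high dose, where 3, 1 and 5 had an unadjusted p under 0.05 and DESeq2 called 0, 1 and 0.

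**Figure D5:**
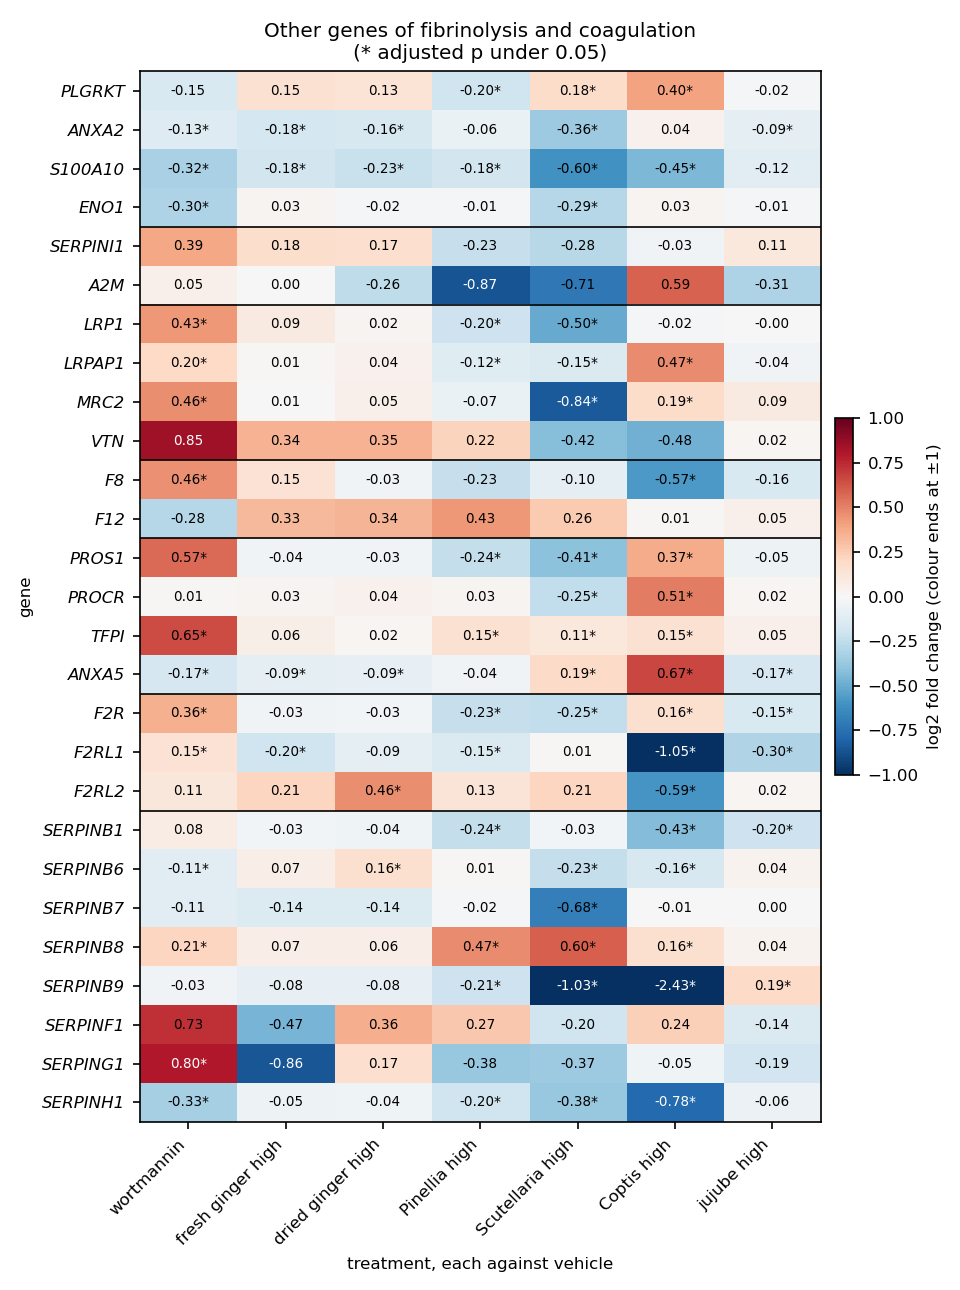
Log2 fold change against the vehicle of the 27 tested genes of the 7 lists (rows, with lines between lists) under wortmannin and each high dose (columns), from edgeR; colour ends at 1 in either direction and an asterisk marks an adjusted p under 0.05. SERPINB9 lies at -2.43 under Coptis and -1.03 under Scutellaria, and TFPI at 0.65 under wortmannin.

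Finally, the genes whose pattern was most like each described gene were found by Pearson's r over the 20 group means of log2 CPM, leaving out genes whose mean log2 CPM was under 1. These are descriptions over groups that differ in treatment and in part in code set and library total. For PLAU they were IL1B (r = 0.889), FEZ1 (0.882), SQOR (0.873), PPP4R4 (0.85) and PTGS2 (0.842), of which IL1B and PTGS2 encode interleukin 1 beta and cyclooxygenase 2. For SERPINB2 they were NCEH1 (0.863), MAP3K8 (0.834), NCOA7 (0.827), ACO1 (0.819) and ABCG2 (0.819). For THBD they were SLC7A11-AS1 (0.964), E2F7 (0.961), KIF16B (0.959), GK (0.957) and SLC31A1 (0.955). Among the 8 genes themselves r over the same 20 means ran between -0.591 for PLAT and THBD and 0.795 for PLAUR and THBD. PLAU followed TFPI2 (0.712), F3 (0.685) and SERPINB2 (0.654), while SERPINB2 and THBD had an r of -0.166.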

How the data were processed

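Per the labels' protocols, RNA of 60 SW1783 samples was made into directional libraries and sequenced as paired 100 bp reads (MGI). RSEM 1.3.3, STAR 2.7.3a, Trim Galore 0.6.5, FastQC 0.11.9 and the GRCh38 build were used, per the submitters' processing notes. The authors deposited RSEM expected counts for 60675 genes, not scaled for depth, of which 90.5% are whole; they were rounded to whole counts. No source used here states the strand setting or the annotation. Symbols came from a gene name table (56558) or GENCODE release 29 (497), positions and exon lengths from GENCODE.

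Counts were tested two-sided in R 4.3.3 with edgeR 4.0.16: filterByExpr (17569 genes), TMM factors (0.80 to 1.04), 1 quasi-likelihood model over all 60 libraries (40 residual degrees of freedom) and Benjamini-Hochberg adjustment over all genes tested, with a call at an adjusted p under 0.05. The common dispersion between libraries, as a coefficient of variation, was 3.2%. The 29 comparisons were 19 treatments against vehicle, 6 of high against low dose, 3 of dried against fresh ginger and their difference of dose effects. Alternatives were DESeq2 1.42.0, RLE size factors, library totals without scaling factors, no filter, only the groups compared, a replicate block and each library of the compared groups left out. Members, lists, named genes (at most 2 called, non-overlapping genes of smallest adjusted p per list in wortmannin and each high dose, and TFPI, PROCR, F2R and SERPINI1) and alternatives were chosen with earlier results of these data known. A further gene is not reported here. The fit was also run on counts simulated from the vehicle means, with changes set in the wortmannin group only. That setting holds no shift as wide as that under high-dose Coptis, so no conclusion is drawn from it. No 2 libraries of a group were identical, and their chi-square per gene was at least 1.63. Intervals and SE cover spread between these libraries.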

Additional observations from a re-analysis of the deposited data

Results flagged for a closer look

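The dose effects of F3 and SERPINB2 differed between the gingers. The high-over-low difference of F3 was 0.10 ± 0.045 (SE) for dried ginger and -0.23 ± 0.046 for fresh ginger on the log2 scale. For dried ginger it was not called (edgeR adjusted p = 0.17) and the doses overlapped. The difference of 0.322 ± 0.064 between the gingers passed edgeR's test (adjusted p = 0.0025). The high and low dose gave 153.5 against 143.6 CPM for dried ginger and 129.5 against 151.7 CPM for fresh ginger.

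SERPINB2 differed between the gingers with the same sign and by more. Its high-over-low difference was 0.47 ± 0.053 for dried ginger and -0.46 ± 0.058 for fresh ginger, a difference of 0.926 ± 0.079 that was not tested because the gene was chosen for its changes. All 3 high-dose libraries lay above the 3 low-dose ones for dried ginger, at 33.69 to 36.99 against 25.03 to 26.46 CPM, and below them for fresh ginger, at 18.63 to 20.78 against 25.37 to 28.27 CPM. Groups of 3 libraries were not searched for outlying libraries.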

How the results depend on the processing

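Counts of called members kept to 34 to 37 against vehicle (main 34; 30 to 34 leaving out 1 library) and 19 to 21 between doses (main 20; 19 to 21 leaving out 1). Dried against fresh ginger, the main count of 2 was 1 with only the compared groups in the fit and 1 to 2 leaving out 1 library, and for the difference of dose effects the main count of 1 was 2 with DESeq2 and 1 leaving out any library. Calls of the 27 pathway genes were 91 to 96 against vehicle (main 96; 88 to 97 leaving out 1) and 58 to 71 between doses (main 64; 61 to 66 leaving out 1). Of 57 called results of the 5 tested genes, 15 lost the call under at least 1 alternative that kept the direction. Of the other 42, SERPINE2 at high against low dose of Coptis reversed and lost its call with library totals (-0.014, edgeR adjusted p = 0.7). The rest kept theirs under every alternative run. Of 52 differences of at least 0.2 in the 3 described genes 0 changed sign. All reversals came with library totals in place of TMM factors under Coptis, which shifts the median of all genes by over 0.1 in 3 comparisons; RLE factors shifted it by at most 0.021. Against vehicle, medium-dose Coptis then gave -0.05 for SERPINE2 and -0.03 for TFPI, and the high dose -0.13 for MRC2, -0.155 for F2R and -0.163 for TFPI. High against low dose of Coptis it gave -0.014 for SERPINE2, -0.194 for TFPI and -0.198 for F2R. The cause was not tested.

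Replicate numbers did not pair libraries: residuals correlated at 0.003 on average for the same number and -0.002 for others, for 26 of 60 the best match had the same number, and in 0 of 28 comparisons did every pair exceed 0.1. With a replicate block the calls were 37 against vehicle, 21 between doses, 2 between gingers, 1 for the difference of dose effects, and 96 and 71 for the pathway genes. At 65 counts in its lowest library, THBD had the largest SE.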
